A study of Sus scrofa domesticus with 6 samples.

Results

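The BCL2 family decides whether a stressed cell keeps its mitochondria intact or dies by apoptosis, and 10 of its genes were followed here through the cell types of transplanted and control pig lungs. The genes were MCL1, BCL2A1, BCL2 and BCL2L1, whose proteins oppose cell death, and BAX, BAK1, BID, BCL2L11, PMAIP1 and BBC3, whose proteins bring it about. They were sought by exact name among 33025 genes listed in at least 1 library, of which 23556 were listed in all 6. 9 members carried their symbol in all 6 libraries, and BAK1 was listed there under its Ensembl identifier, which the reference table of gene names pairs with the symbol.

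The libraries are droplet single-cell RNA profiles of domestic pig lung (Sus scrofa domesticus). In the ischemia-reperfusion injury group (IRI), a single lung was transplanted after 24 hours of cold storage and taken after 8 hours of warm reperfusion. Its cells were sorted by CD45, a surface protein of blood-derived immune cells, into a CD45+ fraction, IRI CD45+ with 2 libraries, and a CD45- fraction, IRI CD45- with 1. The control group, with 3 libraries, held unsorted cells of donors' right lungs. No control was sorted, so the effect of sorting cannot be told apart from that of injury. The labels name lung pairs without saying which libraries pair and do not give the animal of each library, so p-values measure the spread between these libraries. Below, a graft means an IRI library. Whether IRI libraries come from the same lung or from different animals is not given.

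Proteins of the family meet at the outer mitochondrial membrane. BAX and BAK1, the effectors, form pores in it that release cytochrome c and start the caspase cascade, while MCL1, BCL2, BCL2L1 (BCL-xL) and BCL2A1 (A1) hold the effectors and their activators in check. BH3-only proteins tip the balance: BID and BCL2L11 (BIM) can activate the effectors, PMAIP1 (NOXA) binds mainly MCL1 and A1, and BBC3 (PUMA) binds all the survival proteins. Much of this control acts on the proteins themselves, so RNA levels show only what the cell has been set to make.

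UMIs, tags that mark single captured RNA molecules, numbered 19435860 and 19098567 for IRI CD45+ and 40647380 for IRI CD45-, against 25802239 to 33549585 in controls; 40780 cells were kept. No IRI library lists a mitochondrial gene, while each control lists 13, so a filter on mitochondrial UMIs could remove cells of controls only. The lowest cell deposited had 74 to 117 UMIs in IRI libraries and 1001 UMIs in each control, so a minimum of 500 UMIs could remove cells of IRI libraries only. With at least 1000 UMIs, 500 genes and at most 10% mitochondrial UMIs required of cells in all libraries, the member calls lost were PMAIP1 in endothelial-like (0.94, adjusted p = 0.087) and BBC3 in smooth muscle-like cells (1.75, adjusted p = 0.0503). Between 2527 and 4924 cell barcodes are shared by each pair of libraries, none with identical counts. The IRI CD45- library still held 485 T-like and 240 neutrophil-like cells. Cells were clustered without the members or the apoptosis-related lists, and clusters were named "-like" from marker genes. Monocyte-like cells (at most 8 in a control) and neutrophil-like cells (at most 7) were too few in controls to be compared, and AT1-, AT2- and secretory-like cells were compared with nothing for the same reason. Levels are UMIs per 1000000 UMIs of the genes listed in all libraries (UPM), summed over at least 20 cells of a class in a library. Sums of a single cluster could hold fewer cells. In bulk sums of this kind, fewer cells with the RNA and less RNA per cell cannot be told apart.

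MCL1 (chr4:98562092-98567014, Sscrofa11.1), a short-lived protein that most cell types need for survival, was present in every class. In controls its level varied little between classes, from 468 ± 30.3 UPM in dendritic-like cells to 815 ± 130 UPM in mast-like cells (SD, n = 3 each). Grafts spread wider. Neutrophil-like cells had 1916 and 1537 UPM in IRI CD45+ grafts, the AT2-like cells of the IRI CD45- graft had 1436 UPM, and dendritic-like cells had 480 and 522 UPM in IRI CD45+ grafts. Neighbouring classes in this order mostly overlapped.

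BCL2A1 (chr7:48887227-48897667), an NF-kB-induced survival gene of white blood cells, separated the classes far more. Dendritic-like cells had 2938 and 1887 UPM in IRI CD45+ grafts, against 2797, 2733 and 2797 UPM in controls. No other control class came near this, with macrophage-like cells next at 499, 545 and 629 UPM. Graft neutrophil-like cells stood above all other classes of the IRI CD45+ libraries at 4727 and 3994 UPM, and monocyte-like cells had 1478 and 721 UPM. Lymphatic endothelial-like cells of controls, which should lack the gene, had 4.37 to 19.5 UPM.

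BCL2 (chr1:158337403-158518214), the founding member and a survival factor of resting lymphocytes, had its highest graft levels in lymphocytes. T-like cells had 484 and 377 UPM in IRI CD45+ grafts, against 114, 112 and 117 UPM in controls. Macrophage-like cells had 26.1 and 11.7 UPM in IRI CD45+ grafts, against 19.4, 19.99 and 14.0 UPM in controls. Mast-like cells, with 92.1, 151 and 77.2 UPM in controls, overlapped T-like cells there. AT2-like cells of the IRI CD45- graft had 7.57 UPM.

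BCL2L1 (chr17:35366139-35415798) was higher in vessel and wall cells of controls than in their T-like cells. Its level was 78.0 ± 17.4 UPM in lymphatic endothelial-like, 60.5 ± 25.1 UPM in smooth muscle-like and 56.9 ± 21.7 UPM in endothelial-like cells, and 10.2 ± 2.22 UPM in T-like cells (SD, n = 3 each). The 3 structural classes overlapped one another, and each lay above T-like cells in every library.

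The effectors were low throughout. BAX (chr6:54222341-54228150) did not exceed 35.1 UPM in any class and library, and BAK1 (chr7:29808849-29815345) reached 60.9 and 95.2 UPM in plasma-like cells of IRI CD45+ grafts, against 72.8, 78.4 and 77.4 UPM in controls. BID (chr5:69849007-69874647), which caspase 8 cleaves to link death receptors to mitochondria, was highest in plasmacytoid dendritic-like cells, with 205 and 158 UPM in IRI CD45+ grafts and 123, 147 and 140 UPM in controls. BCL2L11 (chr3:45156791-45202996) was highest in dendritic- and T-like cells, whose control means were 90.3 ± 7.95 and 75.7 ± 7.24 UPM (SD, n = 3 each) and overlapped. In plasmacytoid dendritic-like cells, which lay in different clusters and were not tested, BCL2L11 had 15.8 and 22.0 UPM in IRI CD45+ grafts, against 68.9, 70.6 and 74.1 UPM in controls. PMAIP1 (chr1:161184458-161188138) had its control peak in dendritic-like cells, with 387, 492 and 490 UPM. BBC3 (chr6:53037103-53046902) had 57.3, 57.5 and 45.6 UPM in B-like cells of controls and 122 UPM in AT1-like cells of the IRI CD45- graft.

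**Figure D1:**
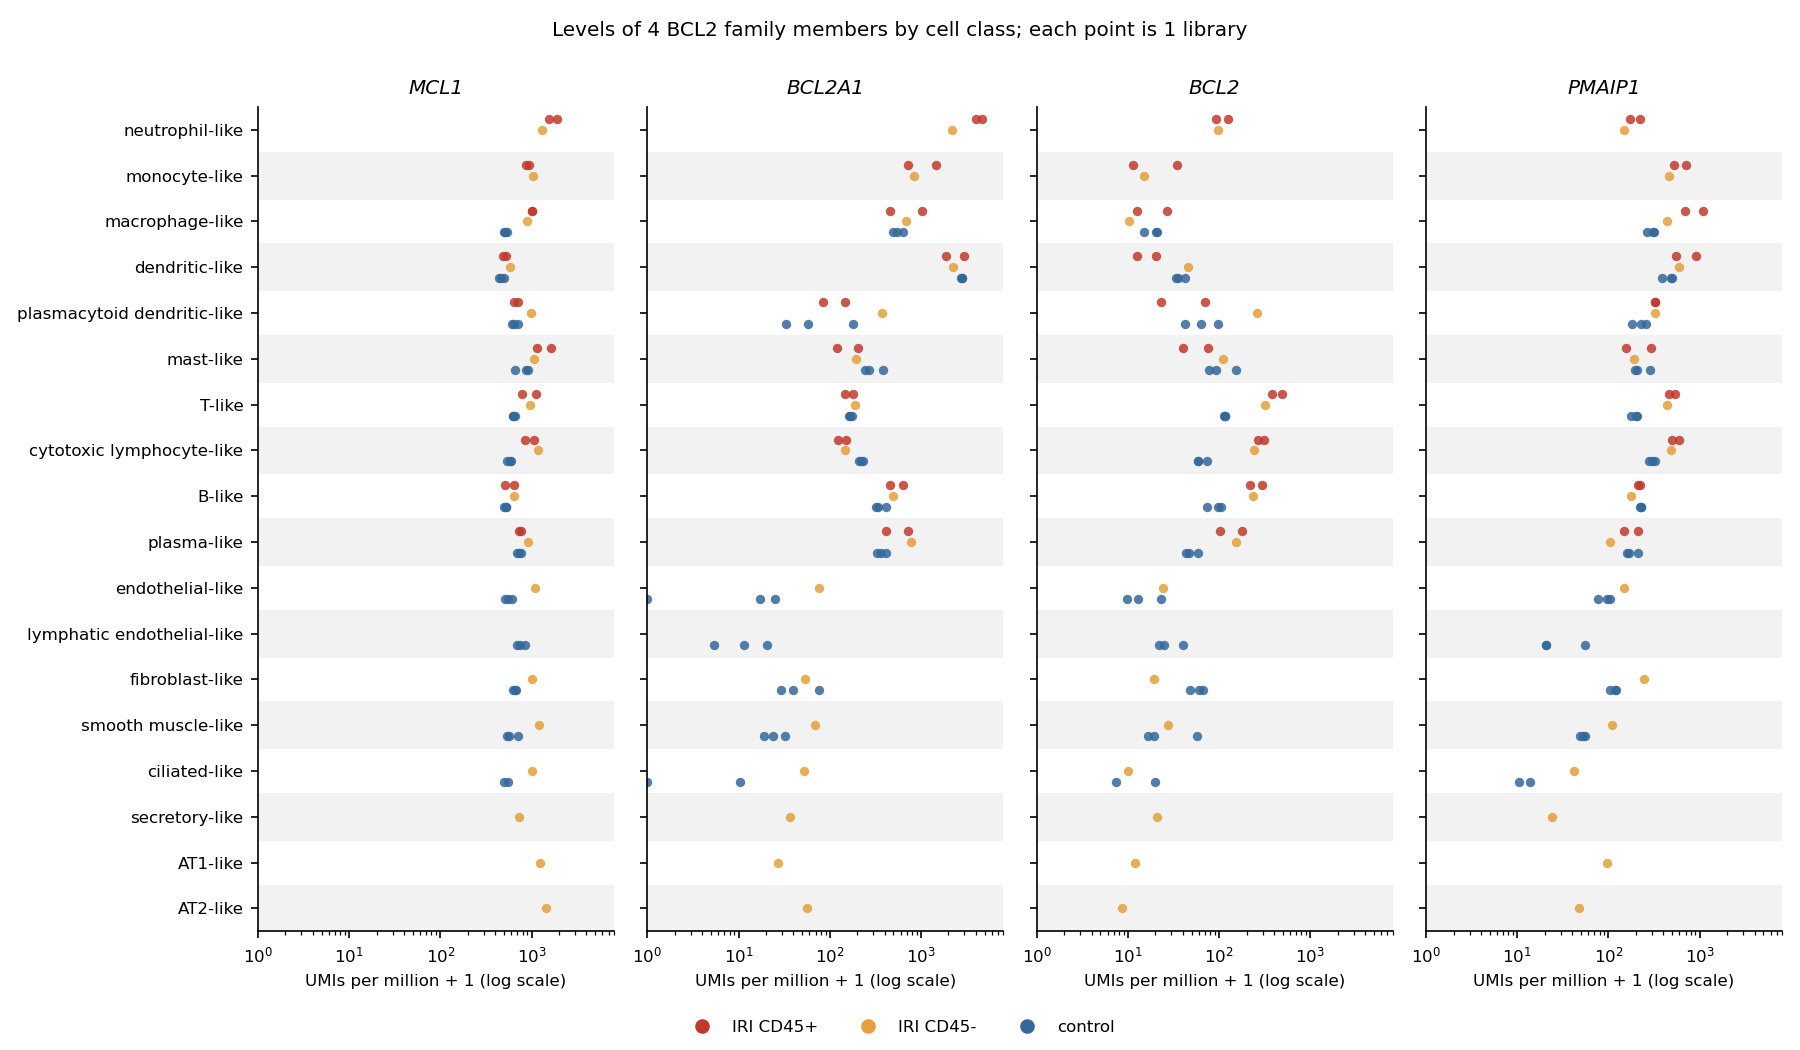
Level of MCL1, BCL2A1, BCL2 and PMAIP1 (UPM + 1, log axis) in each cell class; each point is 1 library, IRI CD45+ above IRI CD45- above control, and a point on the left edge is a level of 0. MCL1 stays within a narrow band across classes, whereas BCL2A1 runs from 4727 UPM in graft neutrophil-like cells to 0 in endothelial-like cells of 1 control.

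Each class was then compared between grafts and controls with edgeR's quasi-likelihood test over all genes (log2 change ± SE, Benjamini-Hochberg adjusted p, called under 0.05). In 93 tests of members over 10 classes, 24 rose and 11 fell, that is 37.6% called. Calls were common among all genes too. In macrophage-like cells 2 of 10 members rose and 0 fell, where 30.9% of all tested genes were called, 12.8% higher and 18.1% lower. In dendritic-like cells 1 rose and 1 fell of 10 (34% of all genes called, 14.6% higher and 19.4% lower). T-like cells had 3 rising and 2 falling members of 10 (59.5%, with 28.4% higher and 31% lower), and cytotoxic lymphocyte-like cells also had 3 rising and 2 falling of 10 (59.2%, with 27.5% higher and 31.8% lower). In B-like cells 3 of 10 rose and 0 fell (46.3%, with 21% higher and 25.3% lower), and in plasma-like cells 2 rose and 2 fell of 10 (35.9%, with 14.9% higher and 21% lower). In mast-like cells 0 rose and 1 fell of 7 (23.8%, with 10.1% higher and 13.7% lower). Against the IRI CD45- graft, endothelial-like cells had 3 rising and 1 falling of 8 (31.2%, with 17.8% higher and 13.4% lower), fibroblast-like cells 3 and 1 of 10 (39%, with 18.5% higher and 20.5% lower), and smooth muscle-like cells 4 and 1 of 8 (35.8%, with 20.7% higher and 15.1% lower). The members were thus called about as often as other genes in most classes, and what follows concerns which members moved and where.

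Groups that do not overlap, counted on the TMM-scaled values of the test, were more common still. They were seen for 3 of 10 members in macrophage-like cells (62.3% of all genes), 4 of 10 in dendritic-like (59.4%), 7 of 10 in T-like (72.9%), 7 of 10 in cytotoxic lymphocyte-like (73.4%), 5 of 10 in B-like (64%), 4 of 10 in plasma-like and 4 of 7 in mast-like cells (61.1% and 51%). For the lone IRI CD45- library they were seen for 6 of 8 members in endothelial-like (72.7%), 9 of 10 in fibroblast-like (87.8%) and 5 of 8 in smooth muscle-like cells (73.4%). A lack of overlap therefore says little by itself in these data. TMM scaling shifted the changes by -0.19 to 0.42 on the log2 scale relative to UPM, and all 35 calls had the same direction in UPM.

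PMAIP1 and MCL1, a BH3-only protein and its main binding partner, rose in the most classes. PMAIP1 rose in 7 of 10 classes and MCL1 in 6, and neither fell in any. BBC3 rose in 4 of 10 classes and fell in none. BCL2A1 was the most mixed, rising in 3 of 10 classes and falling in 2, and BCL2 rose in 4 of the 9 classes where it was tested and fell in 2. BCL2L1 fell in 4 of 9 and rose in none. BAK1 fell in 2 of 9, and BCL2L11 fell in 1 of 8. BAX (8 classes tested) and BID (10) were called in none of these comparisons. With the IRI CD45- cells, a single library, in place of IRI CD45+, BAX changed by -1.09 and BID by -1.16 in cytotoxic lymphocyte-like cells. AT2-like cells of that library, whose RNA was found in its other classes (described below), had 5.24 UPM of BAX and 24.3 UPM of BID. The part of that RNA in these 2 changes was not tested. In T-like cells BAX had 15.3 and 18.2 UPM in IRI CD45+ grafts, against 24.6, 20.2 and 26.8 UPM in controls (-0.31 ± 0.21, adjusted p = 0.216). BID had 66.3 and 64.8 UPM in IRI CD45+ grafts, against 82.7, 85.3 and 84.3 UPM in controls (-0.15 ± 0.13, adjusted p = 0.343). A p above the threshold does not show that these genes were alike in grafts and controls.

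**Figure D2:**
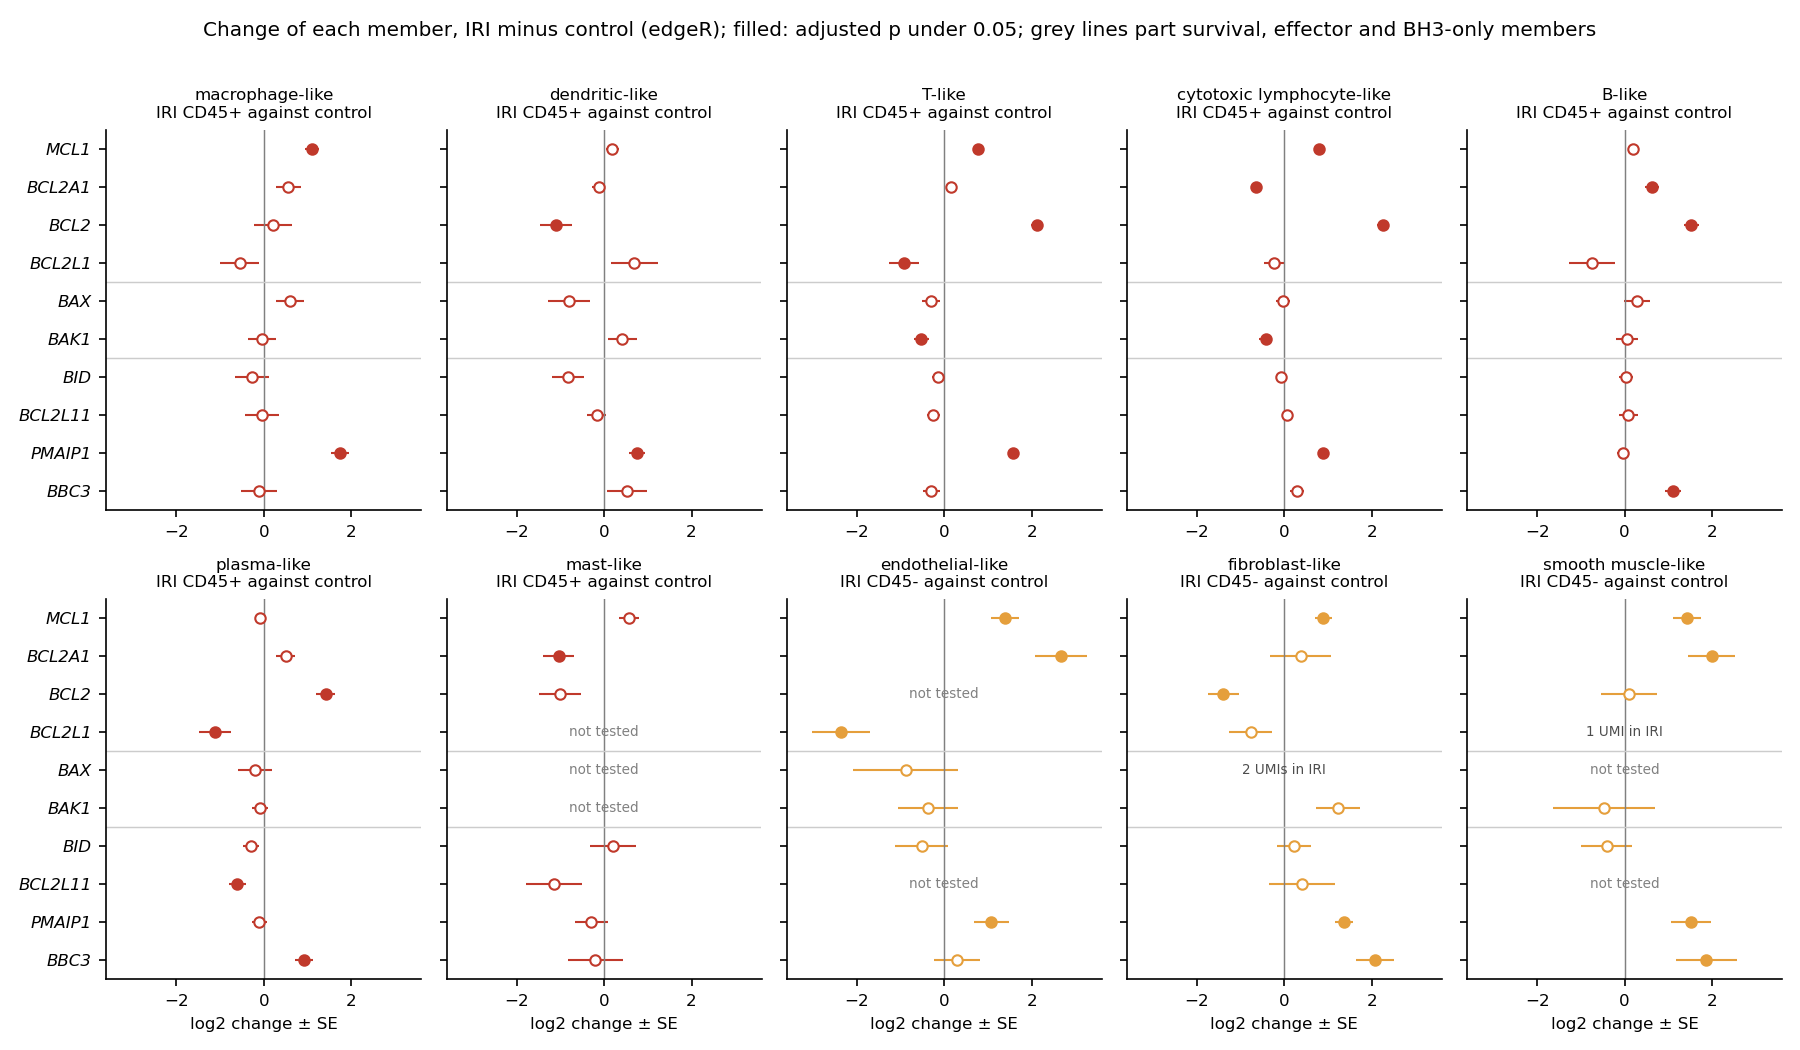
Log2 change ± SE of each member, IRI minus control, in the 10 classes that could be compared; filled points passed the adjusted p threshold of 0.05, and a graft count of 3 UMIs or fewer is written in place of a point. PMAIP1 and MCL1 lie right of 0 and filled in macrophage-, T-, cytotoxic lymphocyte-, endothelial-, fibroblast- and smooth muscle-like cells, while BAX and BID have no filled point.

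In macrophage-like cells, MCL1 and PMAIP1 were the members that changed. MCL1 had 1001 and 1005 UPM in IRI CD45+ grafts, against 503, 508 and 531 UPM in controls, a change of 1.11 ± 0.16 (adjusted p = 0.000778). PMAIP1 had 1090 and 693 UPM in IRI CD45+ grafts, against 265, 306 and 314 UPM in controls, a change of 1.73 ± 0.20 (adjusted p = 0.000195). Neither gene's groups overlapped. BCL2A1 had 1033 and 460 UPM in IRI CD45+ grafts, against 499, 545 and 629 UPM in controls, and overlapped (0.55 ± 0.28, adjusted p = 0.161; 0.98, adjusted p = 0.00436, without IRI CD45+ replicate 2). IRI CD45+ grafts gave 90 macrophage-like cells, 83.3% of them in a cluster led by C1QA, against 1246 in controls, of which 55.1% lay in another cluster led by GPNMB and TREM2. Within the C1QA cluster MCL1 had 1200 and 1015 UPM in IRI CD45+ grafts, against 605, 713 and 554 UPM in controls (0.81, adjusted p = 0.0101), and the change of PMAIP1 was 1.16 (adjusted p = 0.00356). The 26 macrophage-like cells of the IRI CD45- graft had 900 UPM of MCL1 and 441 UPM of PMAIP1; set against controls in place of the CD45+ libraries, they gave 0.70 (adjusted p = 0.0526) and 0.47 (adjusted p = 0.27), and neither was called. Neutrophil marker RNA was spread over macrophage-like cells of all libraries (3022 UPM in IRI CD45+ replicate 1, up to 3834 UPM in controls), and its part in BCL2A1 was not tested.

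Dendritic-like cells, which all lay in 1 cluster led by CCL22 and XCR1, had more PMAIP1 and less BCL2 in IRI CD45+ grafts. PMAIP1 had 922 and 546 UPM in IRI CD45+ grafts, against 387, 492 and 490 UPM in controls (0.76 ± 0.18, adjusted p = 0.00653), and the groups did not overlap. Without IRI CD45+ replicate 1 the change was 0.37 (adjusted p = 0.0699). BCL2 had 11.7 and 19.1 UPM in IRI CD45+ grafts, against 32.6, 40.8 and 34.5 UPM in controls (-1.10 ± 0.37, adjusted p = 0.0344). This rests on 16 graft UMIs, and the call was lost without IRI CD45+ replicate 1 and without each control. The dendritic-like cells of the IRI CD45- graft had 44.1 UPM of BCL2, above every control; set against controls they gave 0.28 for BCL2 (adjusted p = 0.703) and 0.36 for PMAIP1 (adjusted p = 0.13). MCL1 and BCL2A1 gave 0.19 ± 0.15 (adjusted p = 0.338) and -0.12 ± 0.15 (adjusted p = 0.551) in these cells; without IRI CD45+ replicate 1, BCL2A1 was called lower (-0.45, adjusted p = 0.0068).

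In T-like cells BCL2, PMAIP1 and MCL1 rose and BAK1 and BCL2L1 fell. BCL2 changed by 2.13 ± 0.13 (adjusted p = 2.26e-10), with the 2 IRI CD45+ libraries far above the 3 control libraries given above. PMAIP1 had 531 and 465 UPM in IRI CD45+ grafts, against 175, 203 and 201 UPM in controls (1.58 ± 0.12, adjusted p = 5.22e-09). MCL1 had 778 and 1114 UPM in IRI CD45+ grafts, against 620, 630 and 656 UPM in controls (0.78 ± 0.13, adjusted p = 7.14e-05). In none of these 3 did the groups overlap. BAK1 had 25.9 and 27.6 UPM in IRI CD45+ grafts, against 49.8, 41.1 and 42.3 UPM in controls (-0.53 ± 0.18, adjusted p = 0.0147). BCL2L1 had 4.64 and 4.82 UPM in IRI CD45+ grafts, against 7.73, 11.95 and 11.0 UPM in controls (-0.91 ± 0.34, adjusted p = 0.0281). BCL2L1 rests on 44 UMIs in IRI CD45+ grafts and 116 in controls, BAK1 on 248 and 495. Each call was lost without IRI CD45+ replicate 1. That of BAK1 was lost also without control replicate 1 and with finer clustering (-0.23, adjusted p = 0.301). That of BCL2L1 was lost also without control replicate 2 or 3, without IRI CD45+ replicate 2 and with DESeq2 (-0.94, adjusted p = 0.0721).

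T-like cells of grafts and controls lay largely in different clusters, and the change of BCL2 was not the same in each cluster. In IRI CD45+ grafts 95.6% of T-like cells lay in a cluster led by LEF1 and CD28 with S1PR1 among its leading genes, LEF1 and S1PR1 being genes of naive and recirculating T cells, whereas in controls 96.4% lay in a cluster led by CTLA4, ICOS and CD40LG. In the CTLA4 and ICOS cluster, BCL2 had 35.6 and 98.4 UPM in IRI CD45+ grafts, against 113, 107 and 116 UPM in controls, a change in the opposite direction that was not called (-1.02, adjusted p = 0.323; 1 and 5 graft UMIs). Within the LEF1 and S1PR1 cluster it had 487 and 395 UPM in IRI CD45+ grafts, against 204, 330 and 137 UPM in controls (0.90, adjusted p = 0.0259; 6, 30 and 9 control UMIs). The estimates within clusters, -1.02 and 0.90, stood below the 2.13 of the whole class, but they rest on few UMIs on 1 side. The part of the cluster difference in the BCL2 change was not tested. MCL1 was higher in grafts in either cluster: 1209 and 1771 UPM in IRI CD45+ grafts, against 622, 631 and 655 UPM in controls, in the CTLA4 and ICOS cluster (0.82, adjusted p = 0.0085), and 774 and 1093 UPM in IRI CD45+ grafts, against 477, 582 and 683 UPM in controls, in the LEF1 and S1PR1 cluster (0.63, adjusted p = 0.055, not called). PMAIP1 changed by 0.96 (adjusted p = 0.0581, not called) and 1.09 (adjusted p = 0.00501) in these clusters.

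Cytotoxic lymphocyte-like cells, which carry granzymes and natural killer receptors, had more BCL2, MCL1 and PMAIP1 and less BCL2A1 and BAK1 in grafts. BCL2 had 311 and 269 UPM in IRI CD45+ grafts, against 72.9, 57.9 and 58.1 UPM in controls (2.25 ± 0.12, adjusted p = 5.61e-09). MCL1 had 857 and 1070 UPM in IRI CD45+ grafts, against 543, 593 and 583 UPM in controls (0.79 ± 0.10, adjusted p = 2.35e-05). PMAIP1 had 496 and 592 UPM in IRI CD45+ grafts, against 279, 326 and 299 UPM in controls (0.89 ± 0.10, adjusted p = 7.68e-06). In all 3 the grafts lay above every control. BCL2A1 went the other way, with 150 and 122 UPM in IRI CD45+ grafts, against 229, 210 and 222 UPM in controls (-0.65 ± 0.11, adjusted p = 0.000142). BAK1 fell as well (-0.43 ± 0.14, adjusted p = 0.0188), a call lost without either graft library or without control replicate 1. Here too the clusters differed: 97.7% of graft cells lay in a cluster with GZMB, GZMH and PRF1 among its leading genes, and 94.4% of control cells in a cluster led by GNLY, KLRD1 and EOMES. In the first of these, which held 25, 32 and 41 control cells, BCL2 had 311 and 270 UPM in IRI CD45+ grafts, against 353, 54.1 and 145 UPM in controls (0.68, adjusted p = 0.242), and MCL1 (0.27, adjusted p = 0.503), PMAIP1 (0.62, adjusted p = 0.0914) and BCL2A1 (-0.20, adjusted p = 0.738) were not called either.

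B-like cells lay in a single cluster led by MS4A1 and CD79B in grafts (all 815 cells) and largely in controls (89.2% of 1060 cells). There BCL2, BBC3 and BCL2A1 rose, and MCL1 and PMAIP1 were not called. BCL2 had 292 and 218 UPM in IRI CD45+ grafts, against 105, 73.2 and 96.9 UPM in controls (1.52 ± 0.17, adjusted p = 1.31e-06). BBC3 had 127 and 100 UPM in IRI CD45+ grafts, against 57.3, 57.5 and 45.6 UPM in controls (1.11 ± 0.18, adjusted p = 9.99e-05). A survival gene and a death gene thus rose in the same class, with no overlap of groups for either. BCL2A1 had 628 and 459 UPM in IRI CD45+ grafts, against 341, 415 and 318 UPM in controls (0.63 ± 0.15, adjusted p = 0.00308; 0.44, adjusted p = 0.0598, without IRI CD45+ replicate 1). PMAIP1 had 218 and 211 UPM in IRI CD45+ grafts, against 223, 225 and 224 UPM in controls (-0.03 ± 0.13, adjusted p = 0.87), and MCL1 had 517 and 646 UPM in IRI CD45+ grafts, against 500, 526 and 530 UPM in controls (0.20 ± 0.13, adjusted p = 0.22; 0.40, adjusted p = 0.0419, without IRI CD45+ replicate 1). In the MS4A1 cluster alone the changes were 1.498 for BCL2 (adjusted p = 1.31e-06), 1.02 for BBC3 (adjusted p = 0.000239) and 0.54 for BCL2A1 (adjusted p = 0.00765). The IRI CD45- graft's B-like cells, from the other side of the sort, had 235 UPM of BCL2, 119 UPM of BBC3 and 493 UPM of BCL2A1, each above every control. MCL1 had 640 UPM there, also above every control. With these cells in place of IRI CD45+, BCL2L11 changed by -1.10. They come from 1 library, which carried AT2 RNA in every class (described below). The part of that RNA in these values was not tested.

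**Figure D3:**
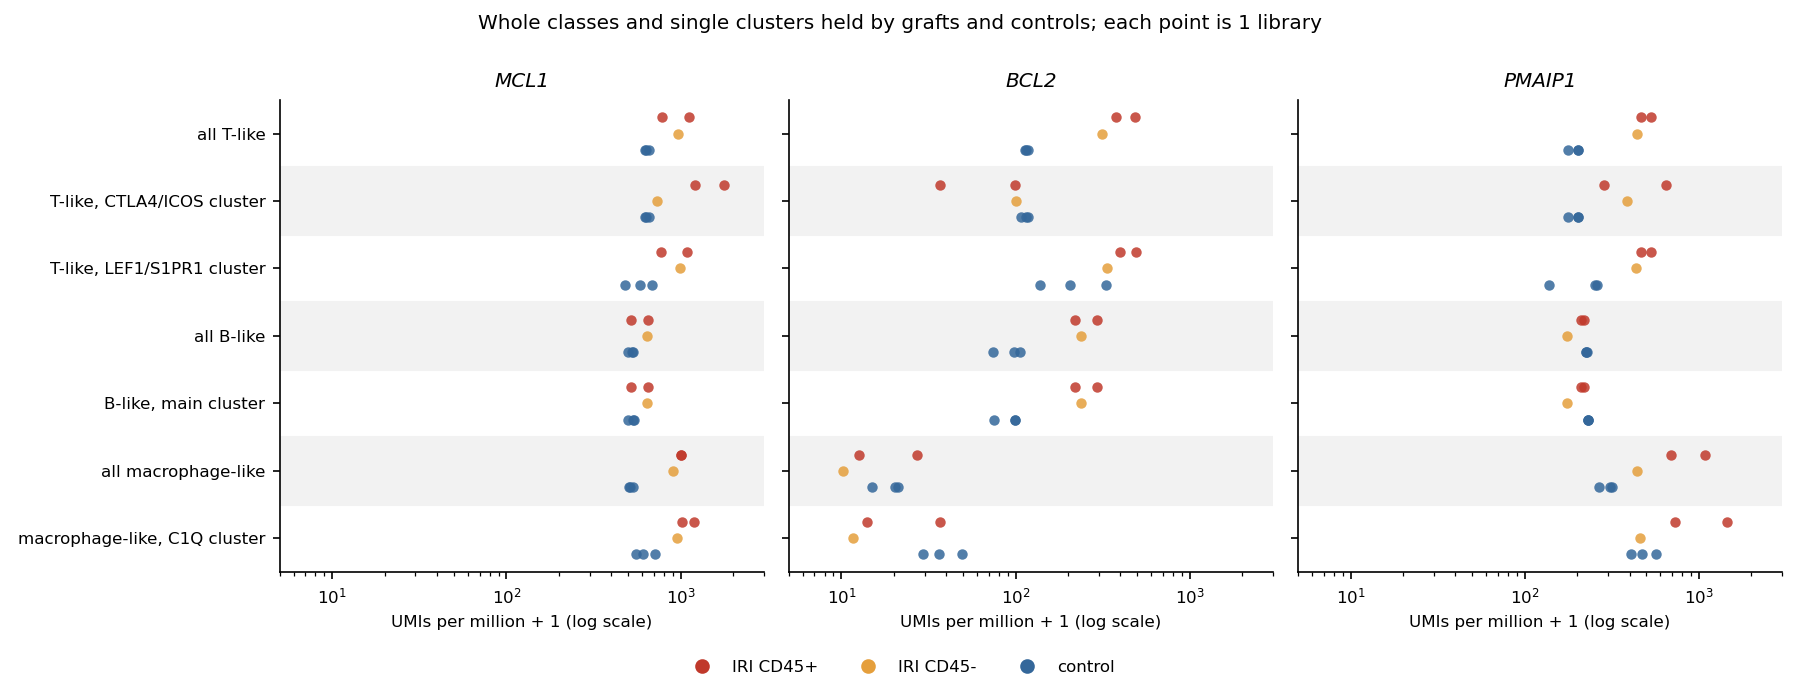
Level of MCL1, BCL2 and PMAIP1 (UPM + 1, log axis) in whole T-, B- and macrophage-like classes and in single clusters that grafts and controls share; each point is 1 library, IRI CD45+ above IRI CD45- above control. The BCL2 points of T-like cells of IRI CD45+ grafts lie at 484 and 377 UPM in the whole class. They lie at 487 and 395 UPM in the LEF1 and S1PR1 cluster, which holds 95.6% of these cells. In the CTLA4 and ICOS cluster they lie at 35.6 and 98.4 UPM, from 1 and 5 UMIs. Those of B-like cells lie at 292 and 218 UPM in the whole class and in the MS4A1 cluster.

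Plasma-like cells had the BCL2 and BBC3 increase of B-like cells at lower levels. BCL2 had 178 and 102 UPM in IRI CD45+ grafts, against 42.3, 45.2 and 57.1 UPM in controls (1.42 ± 0.22, adjusted p = 0.000248). BBC3 had 63.2 and 60.6 UPM in IRI CD45+ grafts, against 31.3, 26.9 and 32.4 UPM in controls (0.91 ± 0.20, adjusted p = 0.003). The groups did not overlap for either gene. BCL2L1 (-1.11 ± 0.36, adjusted p = 0.0252) and BCL2L11 (-0.60 ± 0.20, adjusted p = 0.0283) fell; leaving out IRI CD45+ replicate 2, or the first or second control, ended either call, and that of BCL2L1 ended also without IRI CD45+ replicate 1. BCL2A1 had 724 and 410 UPM in IRI CD45+ grafts, against 331, 416 and 361 UPM in controls, and was not called (0.50 ± 0.22, adjusted p = 0.107). It was called without IRI CD45+ replicate 2 (0.86, adjusted p = 0.000489), with no filter on low counts (0.41, adjusted p = 0.0129) and with the IRI CD45- cells in place of IRI CD45+ (0.91, adjusted p = 0.00301). In each immune class compared, BCL2A1 was higher in IRI CD45+ replicate 1 than in replicate 2. Most graft plasma-like cells lay in a cluster other than that of the controls. Mast-like cells had 1 call, a fall of BCL2A1 to 205 and 118 UPM in IRI CD45+ grafts, against 271, 387 and 240 UPM in controls (-1.04 ± 0.36, adjusted p = 0.0412), which was lost without control replicate 2 or IRI CD45+ replicate 2. MCL1 in mast-like cells had 1158 and 1635 UPM in IRI CD45+ grafts, against 665, 904 and 875 UPM in controls, and was not called (0.57 ± 0.23, adjusted p = 0.084), although the groups did not overlap. It was called without IRI CD45+ replicate 1 (0.84, adjusted p = 0.0206) and with sums thinned to the smallest (0.67, adjusted p = 0.0449).

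Whether a member changed differently in 2 classes was tested on the per-library differences between classes with limma. Against T-like cells, 1 of 10 members differed in macrophage-like cells, with a lower change (16.8% of all genes differed, 2.79% higher and 14% lower). In cytotoxic lymphocyte-like cells 2 of 10 differed, both lower (7.81%, with 3.57% higher and 4.24% lower), and in B-like cells 2 were higher and 2 lower (10.8%, with 5.41% higher and 5.35% lower). PMAIP1 separated B- from T-like cells most clearly: its change was lower in B-like cells (-1.52 ± 0.15, adjusted p = 6.35e-06). BBC3 did the reverse, with a change 1.497 ± 0.27 higher in B-like than in T-like cells (adjusted p = 0.00153). MCL1 (-0.48 ± 0.13, adjusted p = 0.0204) and BCL2A1 (0.56 ± 0.15, adjusted p = 0.0254) also differed between B- and T-like cells, but only with all 5 libraries: MCL1 was lost without any 1 of them and BCL2A1 without any but control replicate 2. Cytotoxic lymphocyte-like cells differed from T-like cells in BCL2A1 (-0.82 ± 0.12, adjusted p = 0.000511) and PMAIP1 (-0.68 ± 0.13, adjusted p = 0.00293). For BCL2, the change in macrophage-like cells was below that in T-like cells (-2.17 ± 0.30, adjusted p = 0.00999; not called without control replicate 1, 2 or 3). T-like cells of grafts and controls lay largely in different clusters, as described above, and the part of this in these differences was not tested.

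The structural classes compare a single IRI CD45- library with 3 controls, so its own spread had to be taken from theirs. That library also carried AT2 RNA in every class: the AT2 marker list summed to 48908 UPM in endothelial-like, 48850 UPM in smooth muscle-like and 30231 UPM in fibroblast-like cells, against 36.2 to 61.8 UPM in endothelial-like cells of controls, and 131834 UPM in AT2-like cells themselves. By those markers, AT2 RNA would be 37.1%, 37.1% and 22.9% of the RNA in the 3 graft classes. Their own markers were lower in the graft (endothelial list 4233 UPM, against 8392 to 10214 UPM in controls; fibroblast list 19130 UPM, against 66969 to 88623 UPM in controls), and nearly all graft cells lay in other clusters than the control cells. The graft fibroblast-like cluster was led by IL6, PTX3 and HAS1, and the graft endothelial-like cluster by PLAT and CLDN5. The part of these cluster differences in the results below was not tested.

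MCL1 and PMAIP1 rose in all 3 structural classes. MCL1 had 1104 UPM in endothelial-like cells of the IRI CD45- graft, against 507, 547 and 610 UPM in controls (1.40 ± 0.32, adjusted p = 0.000464). It had 1008 UPM in fibroblast-like cells of the graft, against 624, 662 and 679 UPM in controls (0.89 ± 0.20, adjusted p = 0.00403), and 1220 UPM in smooth muscle-like cells of the graft, against 541, 571 and 705 UPM in controls (1.43 ± 0.32, adjusted p = 5e-05). In all 3 classes the graft lay above every control. With the AT2 share taken out of the graft profile, MCL1 came to 908 UPM in endothelial-like, 881 UPM in fibroblast-like and 1092 UPM in smooth muscle-like cells; the highest controls of these classes had 610, 679 and 705 UPM. The part of AT2 RNA in the change was not tested. PMAIP1 had 243 UPM in fibroblast-like cells of the IRI CD45- graft, against 116, 121 and 104 UPM in controls (1.37 ± 0.20, adjusted p = 0.000239). It had 148 UPM in endothelial-like cells of the graft, against 75.0, 96.5 and 103 UPM in controls (1.08 ± 0.40, adjusted p = 0.0313), and 109 UPM in smooth muscle-like cells of the graft, against 47.3, 54.8 and 51.2 UPM in controls (1.52 ± 0.45, adjusted p = 0.00332). AT2-like cells had 46.1 UPM of PMAIP1, and the part of their RNA in these changes was not tested. The endothelial call was lost without control replicate 1 (0.98, adjusted p = 0.0561) or 3 (1.14, adjusted p = 0.133), and DESeq2 called neither it nor that in smooth muscle-like cells.

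BCL2L1 fell in endothelial- and smooth muscle-like cells. It had 8.06 UPM in endothelial-like cells of the IRI CD45- graft, against 79.4, 36.2 and 55.1 UPM in controls (-2.36 ± 0.67, adjusted p = 0.00461). The call was lost without control replicate 3 (adjusted p = 0.0587), in DESeq2 (adjusted p = 0.092) and with sums thinned to the smallest (-1.45, adjusted p = 0.184). In smooth muscle-like cells 1 UMI was counted in the graft and 52 in controls, a ratio of 0.0152 with a 95% counting interval from 0.000377 to 0.0884. With the AT2 share taken out, BCL2L1 came to 9.30 UPM in endothelial-like cells of the graft, against 36.2 UPM in the lowest control, and to -2.06 UPM in smooth muscle-like cells. A level below 0 cannot occur, and with 1 graft UMI it does not show how well the subtraction holds. BCL2 fell in fibroblast-like cells, to 18.3 UPM in the IRI CD45- graft, against 46.4, 58.9 and 65.4 UPM in controls (-1.39 ± 0.36, adjusted p = 0.00948; adjusted p = 0.075 in DESeq2).

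BBC3 rose in fibroblast-like cells, with 30.4 UPM in the IRI CD45- graft, against 8.92, 7.28 and 9.90 UPM in controls (2.08 ± 0.43, adjusted p = 0.00244), and in smooth muscle-like cells, with 40.4 UPM in the graft, against 10.5, 13.7 and 17.8 UPM in controls (1.87 ± 0.70, adjusted p = 0.025; adjusted p = 0.33 in DESeq2). AT2-like cells had 38.2 UPM of BBC3, and without the AT2 share the graft levels were 28.1 and 41.8 UPM. BCL2A1 passed the test in endothelial-like (2.68 ± 0.59, adjusted p = 0.000627) and smooth muscle-like cells (1.99 ± 0.54, adjusted p = 0.00114), though in neither with DESeq2 (adjusted p = 0.0741 and 0.181). Its graft levels of 76.2 and 68.0 UPM were the highest of the named non-immune classes of that library, the others having 25.8 UPM in AT1-like to 55.6 UPM in AT2-like cells, while its neutrophil-like cells had 2180 UPM. The gene was thus seen at a low level in every named non-immune class of that library, and the part of RNA spread between its cells was not tested.

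Of the epithelial classes, ciliated-like cells passed 20 cells in 2 controls and were described without a test. MCL1 had 1020 UPM in ciliated-like cells of the IRI CD45- graft, against 503 and 545 UPM in controls. BCL2L1 had 18.5 UPM in the graft, against 46.6 and 32.0 UPM in controls, which rest on 5 UMIs each. The graft lay above both controls for MCL1 and below both for BCL2L1. AT1-, AT2- and secretory-like cells could be described in the graft alone. AT1-like cells, the thin gas-exchange cells, had 1237 UPM of MCL1, 122 UPM of BBC3, 96.0 UPM of PMAIP1 and 40.6 UPM of BCL2L11. AT2-like cells, which make surfactant, had 1436, 38.2, 46.1 and 19.98 UPM of the same genes. BBC3 in AT1-like cells was above that of the other named non-immune classes in that library, and this is a description of 1 library.

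The balance between the 2 camps was described as the survival share, the UMIs of MCL1, BCL2A1, BCL2 and BCL2L1 as a percentage of the UMIs of all 10 members. It is a description of RNA counts and was not tested. Among classes of the IRI CD45+ libraries, neutrophil-like cells had the highest share, 95.5% and 93.1%, with 91.1% in the IRI CD45- graft. Macrophage-like cells had 61.8% and 65.0% in IRI CD45+ grafts, against 71.2%, 68.9% and 72.1% in controls. Dendritic-like cells had 76.4% and 77.0% in IRI CD45+ grafts, against 85.2%, 82.5% and 82.7% in controls. In these myeloid classes the grafts lay below every control. PMAIP1 gave most of the death members' UMIs there. Its mean was 892 UPM in macrophage-like cells of IRI CD45+ grafts and 295 UPM in those of controls. In dendritic-like cells it was 734 and 456 UPM. No other death member had a mean above 90.3 UPM in either class, so the lower shares reflect mainly this 1 gene. The share without PMAIP1 was not computed.

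The share lay above every control in B-like cells, with 72.6% and 72.8% in IRI CD45+ grafts, against 67.1%, 69.1% and 67.0% in controls. Cytotoxic lymphocyte-like cells had 64.1% and 63.6% in IRI CD45+ grafts, against 61.3%, 59.6% and 61.2% in controls. Plasma-like cells had 77.9% and 74.8% in IRI CD45+ grafts, against 73.5%, 73.6% and 70.6% in controls. In these classes too the grafts lay above the controls. Graft and control cells of the macrophage-, T-, cytotoxic lymphocyte- and plasma-like classes lay largely in different clusters. The part of this difference in the shares was not tested. T-like grafts, at 66.7% and 71.7%, fell on either side of the controls at 67.3%, 66.9% and 67.3%. Mast-like cells had 83.0% and 77.7% in IRI CD45+ grafts, against 73.6%, 79.7% and 71.7% in controls, and overlapped. MCL1 weighs heavily in the share: without it, the difference of means in percentage points was -14.8 in place of -7.35 in macrophage-like, 10.9 in place of 4.98 in B-like, 10.6 in place of 3.77 in plasma-like and 1.04 in place of 3.14 in cytotoxic lymphocyte-like cells. In T-like cells it was 7.29 in place of 2.03, and in mast-like cells it turned to -12.5 in place of 5.37. In the 26 macrophage-like cells of the IRI CD45- graft the share was 73.9%, above all 3 controls and unlike the CD45+ grafts. Endothelial-like cells had 83.3% in the IRI CD45- graft, against 75.4%, 71.7% and 72.2% in controls, and fibroblast-like cells had 77.1% in the IRI CD45- graft, against 81.4%, 82.1% and 82.9% in controls. AT2-like cells had a share of 91.2%. The part of AT2 RNA in the other shares of the IRI CD45- graft, that of macrophage-like cells included, was not tested.

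**Figure D4:**
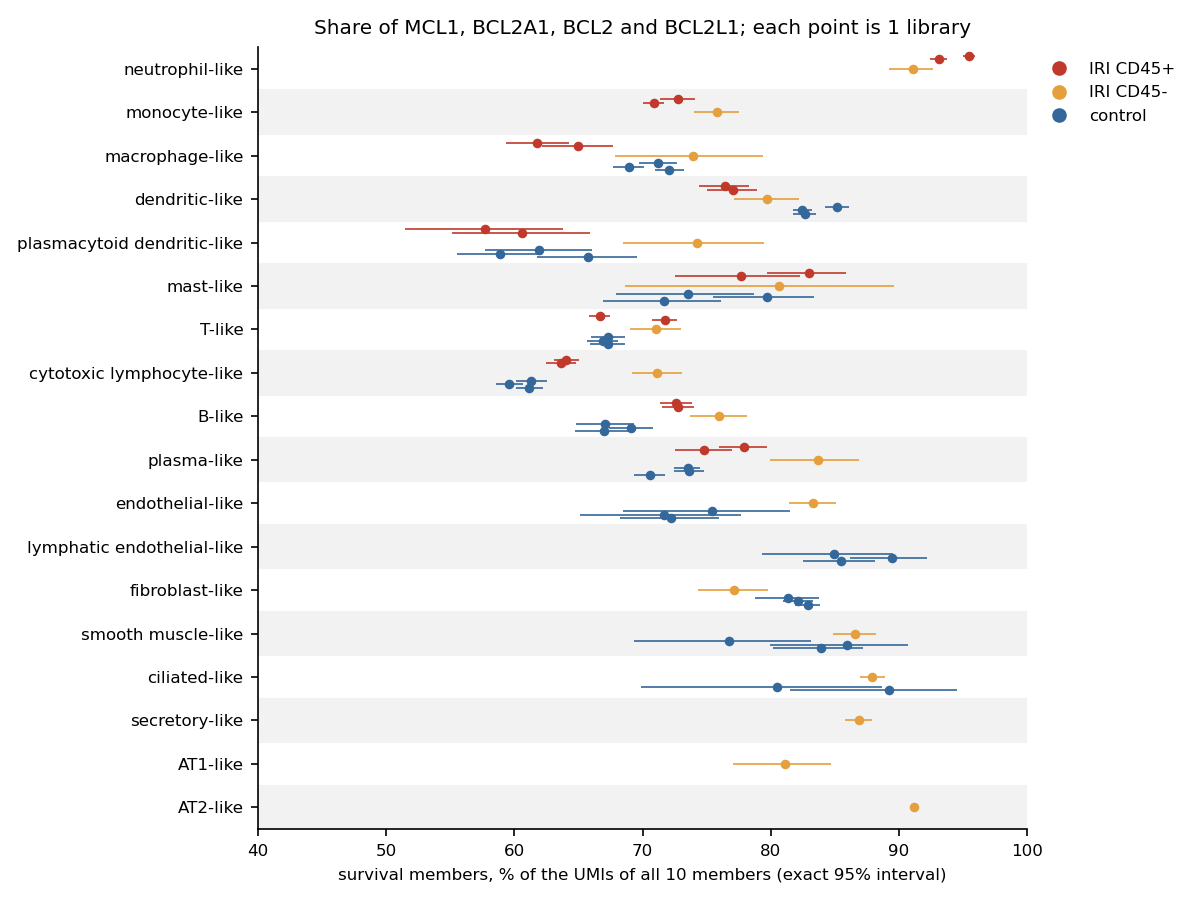
Survival share (MCL1, BCL2A1, BCL2 and BCL2L1 as a percentage of the UMIs of all 10 members; axis starts at 40%) by cell class; each point is 1 library with its exact 95% binomial interval, which covers counting error only, and IRI CD45+ lies above IRI CD45- above control. IRI CD45+ grafts sit left of the controls in macrophage- and dendritic-like cells and right of them in B- and cytotoxic lymphocyte-like cells.

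Other apoptosis genes were counted in 6 lists. Death receptors, their ligands and adaptors gave 5 rising and 0 falling of 8 tested in macrophage-like cells, where 12.8% of all genes rose, with a median change of 1.26 against -0.26 over all genes. In fibroblast-like cells 6 of 8 rose and 0 fell (18.5% of all genes rose; median 1.43 against -0.40), and in cytotoxic lymphocyte-like cells 5 of 9 rose and 1 fell (27.5% of all genes rose; median 0.56 against -0.04). In T-like cells 3 of 9 rose (28.4% of all genes), in B-like cells 1 of 7 (21%) and in mast-like cells 0 of 3 (10.1%). RIPK1, the kinase at the tumour necrosis factor receptor, rose by 1.28 ± 0.19 in macrophage-like, 1.25 ± 0.12 in T-like and 1.38 ± 0.11 in cytotoxic lymphocyte-like cells, and TNFRSF1A, that receptor itself, by 1.25 ± 0.20, 1.42 ± 0.21 and 1.23 ± 0.18 in the same classes.

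Among 12 other BCL2 family genes listed, BMF, a BH3-only gene, rose in lymphocytes: by 2.69 ± 0.19 in T-like, 2.94 ± 0.18 in cytotoxic lymphocyte-like and 3.02 ± 0.23 in B-like cells. BAD, another BH3-only gene, fell in T-like (-0.85 ± 0.20) and B-like cells (-1.45 ± 0.31). Of 7 list genes tested, 4 rose and 2 fell in cytotoxic lymphocyte-like cells (27.5% and 31.8% of all genes), and 1 rose and 3 fell in B-like cells (21% and 25.3%). Inhibitors of apoptosis split: XIAP, the direct caspase inhibitor, rose by 1.69 ± 0.16 in T-like cells, while BIRC3 fell by 0.93 on the log2 scale there. In fibroblast-like cells BIRC3 rose by 2.47 ± 0.22. Of caspases, the apoptosome and mitochondrial release, 4 of 19 rose and 6 fell in T-like cells (28.4% and 31% of all genes; median -0.05 against -0.02). In B-like cells 5 of 17 rose and 2 fell (21% and 25.3% of all genes; median 0.22 against -0.02), and in macrophage-like cells 1 of 18 rose and 1 fell (12.8% and 18.1%). In B-like cells 1 of 8 inhibitors rose and 4 fell (21% and 25.3% of all genes), with a median of -0.39 against -0.02.

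PMAIP1 and BBC3 are known targets of p53. Of the list of p53 and its other targets, 3 of 15 tested rose and 8 fell in B-like cells (21% and 25.3% of all genes; median -0.56 against -0.02), CDKN1A by -1.84 ± 0.18 and GADD45A by -2.01 ± 0.20. BBC3 rose in the same class, and the part of p53 in its level was not tested. In T-like cells 5 of 16 rose and 5 fell, near the shares of all genes (28.4% and 31%). Of the genes that control MCL1 turnover and BH3-only proteins, 13 of 24 rose and 6 fell in fibroblast-like cells (18.5% and 20.5% of all genes; median 0.99 against -0.40), among them ATF4, a stress transcription factor known to drive PMAIP1 and TRIB3, with 3.40 ± 0.22. ATF4 rose by 1.08 ± 0.16 in macrophage-like cells. PIM1, a survival kinase, rose by 2.50 ± 0.26 in macrophage-like, 2.11 ± 0.13 in T-like, 2.93 ± 0.14 in cytotoxic lymphocyte-like and 2.09 ± 0.16 in B-like cells.

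The genes whose level followed 3 of the members most closely were named by Pearson correlation of log2 UPM over 75 class and library sums, among 6563 genes. The sums share libraries, classes and depth, so these are descriptions. For MCL1 the closest were CCNL1 (r = 0.79), EIF1 (0.75), an unnamed gene (0.74), TRIM56 (0.70) and ATF4 (0.69). For BCL2A1 they were the leukocyte genes CD48 (0.83), LAT2 (0.81), PLEK (0.81), LCP1 (0.80) and ADAM8 (0.80). BCL2 was followed by MIA3 (0.82), an unnamed gene (0.77) and, among others, LTB (0.76), a lymphocyte gene, and STK26 (0.74).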

How the data were processed

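The deposited values are whole-number UMI counts per gene and cell, written by PISA per the file headers. The submitters' processing notes name Sscrofa11.1, Seurat 5.5.3 and R 4.2.2. How reads shared between genes were counted is not given in the labels or headers. Gene coordinates are RefSeq's for Sscrofa11.1.

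Cells with at least 500 UMIs, 200 genes and at most 20% mitochondrial UMIs were kept. Scrublet at a 6% expected rate called too few doublets in most libraries (0 to 35), so leaving out the top 6% of its scores was an alternative. Cells of all libraries were clustered in scanpy 1.11.5 (1998 variable genes, 30 components, 15 neighbours, Leiden resolution 1), leaving out 113 members and list genes. Counts were summed per class and library over at least 20 cells and tested with edgeR 4.0.16 (TMM, filterByExpr, quasi-likelihood, Benjamini-Hochberg over all genes). Sums of single shared clusters were tested with fewer cells as well. The CTLA4 and ICOS cluster had 16 cells in IRI CD45+ replicate 1, and the LEF1 and S1PR1 cluster had 13 in control replicate 1. Class differences were tested with limma 3.58.1, and DESeq2 1.42.0 was an alternative. All 10 members were named in every comparison, and list genes by smallest p, up to 4 per list and comparison. The scripts were tested on simulated data. Members and lists were chosen with earlier results of these data known. Intervals cover counting error only.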

Additional observations from a re-analysis of the deposited data

Results flagged for a closer look

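In 7 of 30 tests a member changed differently in another immune class than in T-like cells, by limma on per-library differences between the classes (log2 change in the class minus that in T-like cells, IRI CD45+ grafts over controls). For B-like cells the difference was -1.52 ± 0.15 for PMAIP1 (changes of 0.06 in B-like and 1.57 in T-like cells), 1.497 ± 0.27 for BBC3 (1.197 and -0.30), -0.48 ± 0.13 for MCL1 (0.28 and 0.76) and 0.56 ± 0.15 for BCL2A1 (0.71 and 0.16). For cytotoxic lymphocyte-like cells it was -0.82 ± 0.12 for BCL2A1 (-0.64 and 0.18) and -0.68 ± 0.13 for PMAIP1 (0.91 and 1.59). For BCL2 in macrophage-like cells it was -2.17 ± 0.30 (-0.05 and 2.12). The adjusted p-values are given with the comparisons above. The differences for MCL1 and BCL2A1 in B-like cells and for BCL2 in macrophage-like cells lost their call when single libraries were left out.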

How the results depend on the processing

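Of the single-gene results, 1423 kept their direction and side of the threshold, 81 lost the call, 27 gained one and 4 reversed; of the comparison results 183 stayed within the spread or 1.5 times the count, 45 moved and 2 reversed. Members called were 1 in dendritic-, 2 in plasma-, 0 in mast-, 1 in endothelial- and 2 in smooth muscle-like cells with DESeq2. They were 3 in mast-, 1 in endothelial- and 3 in smooth muscle-like cells with sums thinned to the smallest, and 0 in mast-like cells with no filter or finer clustering. With the IRI CD45- cells in place of IRI CD45+ they were 0 in macrophage-, 1 in dendritic-, 8 in cytotoxic lymphocyte-, 5 in B- and 0 in mast-like cells. BCL2 in dendritic-like cells then turned to 0.28, and BCL2L11 to -0.80 in cytotoxic lymphocyte- and -1.10 in B-like cells. BCL2L11 also changed by -1.30 in dendritic-, -1.23 in T- and -0.89 in plasma-like cells, but by 0.64 in macrophage-like cells. It had 0 UPM in mast-like cells of that library. BCL2L1 and BAK1 changed by -1.61 and -0.56 among T-like cells, against -0.91 and -0.53 with IRI CD45+. The part of AT2 RNA in these values was not tested. Within a shared cluster, 2 were called in T-like cells (MCL1 and BID, with 1 graft UMI of BID; BCL2 turned to -1.02 and was not called), 2 in the second T cluster and 0 in cytotoxic lymphocyte-like cells; these sums hold fewer cells. Leaving out 1 library gave 1 to 3 calls in dendritic-, 3 to 5 in T-, 2 to 4 in plasma-, 0 to 2 in mast- and 2 to 4 in endothelial-like cells, and 0 to 2 differences for macrophage- and 2 to 3 for B- against T-like cells. The survival share difference in T-like cells (2.03 points) ranged from -0.50 to 4.56 points. Without MCL1 it was -14.8 points in macrophage-, -8.18 in dendritic-, 7.29 in T-, 1.04 in cytotoxic lymphocyte-, 10.9 in B-, 10.6 in plasma- and -12.5 in mast-like cells. The cause was not tested elsewhere.

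Differences between control replicates and those between IRI CD45+ replicates had correlations from -0.06 to 0.084 over genes. These cannot show whether same-numbered libraries share an animal, so the pairing stays unknown. The fit with the replicate number as a block called 1 member in dendritic-like cells, and BCL2A1 in plasma-like cells (0.42, adjusted p = 0.0321). Monocyte-like cells could not be compared, having under 20 cells in each control. Members at few UMIs, such as BCL2L1 and BAX, are limited by depth.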
